A study of Mus musculus with 15 samples.

Results

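The genes of the NMDA receptor subunits and of the delta receptor GluD1 were followed in medial ganglionic eminence (MGE)-derived cortical interneurons of the E14.5 mouse embryo. The 8 genes were chosen by name: *Grin1*, *Grin2a*, *Grin2b*, *Grin2c*, *Grin2d*, *Grin3a*, *Grin3b* and *Grid1*. All 8 were present among the 26835 genes of the table made for the *Lhx6* embryos and among the 25714 genes of the table made for the *Mtg8* embryos. The study asked which genes need LHX6, a LIM homeodomain factor, or MTG8, a transcriptional corepressor encoded by *Runx1t1*, in migrating MGE interneurons. *Lhx6* controls were Lhx6+/+ (4 libraries) and *Lhx6* mutants Lhx6-/- (5 libraries), *Mtg8* controls were Mtg8+/+ (3 libraries) and the libraries labelled *Mtg8* mutant came from Mtg8-/- embryos (3 libraries). Every group also carried the Nkx2-1-Cre transgene (written Nkx2-1-Cre Tg in the controls) and was homozygous for the floxed reporter, R26R-YFP fl/fl. All embryos were at E14.5, labelled C57BL6/CBA, a mixed background, and each embryo gave 1 library. The paper describes the mutants as littermates of the controls, and the library names do not say which embryos shared a litter. Nkx2-1-Cre marks cells of the MGE lineage, and the YFP-positive fraction of the cortex was collected, whereas the mutations themselves were germline and not limited to the sorted cells.

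NMDA receptors are ionotropic glutamate receptors assembled from 4 subunits. Each receptor needs the glycine-binding GluN1 subunit, encoded by *Grin1*, together with glutamate-binding GluN2 subunits (*Grin2a* to *Grin2d*) or glycine-binding GluN3 subunits (*Grin3a* and *Grin3b*). The GluN2 subunit sets how long the channel stays open and how strongly magnesium blocks it. In the embryonic forebrain GluN2B and GluN2D are known as the early GluN2 subunits, GluN2A rises after birth, and GluN2C is best known from the cerebellum. GluD1, encoded by *Grid1*, is related to these receptors in sequence but binds cerebellin and neurexin proteins across the synapse and works mainly as an organizer of synaptic contacts.

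The 8 genes are paralogs, so reads could in principle be split between them. Over whole transcripts the longest run shared exactly by any pair of these genes was 43 bases, between *Grin2b* and *Grid1*, which is shorter than the 75-base reads. No full-length read could thus match 2 of the 8 genes exactly. Other genes shared more with some of them. Of all 75-base words in the transcripts, 19.0% of those of *Grin3b* also occurred in *Tmem259* on the opposite strand and 11.1% of those of *Grin2a* in *Gm7328*. The corresponding shares were 6.46% for *Grin2d* (*Gm45441*, opposite strand) and 5.67% for *Grin1* (*Grin1os*, opposite strand), and at most 0.383% for the other members. *Grin1os* and *Gm7328* were not analysed here.

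The libraries held 12218422 to 22053032 counted reads (median 16675975). *Lhx6* itself had 7247 ± 1093 normalized counts in *Lhx6* controls and 331 ± 99.7 in *Lhx6* mutants (mean ± SD, n = 4 and n = 5). *Runx1t1* was not lower in the libraries labelled *Mtg8* mutant, at 12845 ± 944 normalized counts against 8891 ± 1219 in controls (n = 3 each), and these libraries are called by their label throughout. The paper lists its germline *Mtg8* allele as a LacZ knock-in, and whether this allele leaves counted *Runx1t1* transcript in place was not tested. Of 14 MGE interneuron markers 13 were in the tables, and their summed normalized count ranged from 51669 to 64771 in *Lhx6* controls, from 31554 to 52815 in *Lhx6* mutants, from 84982 to 88823 in *Mtg8* controls and from 52158 to 72614 in libraries labelled *Mtg8* mutant. In the *Lhx6* table limma called members of this list in both directions, among them *Sst* and the deleted *Lhx6* itself lower and *Dlx5* higher, and in the *Mtg8* table their median log2 fold change was -0.49. All 10 markers of the pyramidal lineage were also detected, and they summed to 16004 to 21307 in *Lhx6* controls and 12626 to 17419 in *Lhx6* mutants. The pyramidal sum of the *Mtg8* table was 5143 to 13126 in controls and 8145 to 20363 in libraries labelled mutant. The 6 markers of interneurons from the caudal ganglionic eminence (CGE) summed higher in every mutant, at 1532 to 1921 against 2514 to 3161 in the *Lhx6* table and 1553 to 1660 against 1702 to 2083 in the *Mtg8* table. The CGE markers did not move together in the *Lhx6* table either, where limma called *Cxcl14* higher (28.6 against 748 normalized counts in controls and mutants) and *Htr3a* (221.9 against 78.8) and *Npas1* (484 against 119.9) lower. The 8 radial glia markers summed to 8909 to 10935 and 8077 to 15377 in the *Lhx6* groups and, without overlap, to 6018 to 7406 and 7859 to 12230 in the *Mtg8* groups. Red blood cell markers summed to 1695 to 58166 over all libraries, highest in *Lhx6* control 3, microglial markers to 5.87 to 879, highest in *Mtg8* control 2, and endothelial markers to 21.3 to 248. Oligodendrocyte precursor markers summed to 54.7 to 105.9 in *Lhx6* controls and 56.2 to 326 in mutants, and to 6.40 to 304 and 51.0 to 526 in the *Mtg8* groups. The part of these cells in the results below was not tested. The 4 *Lhx6* controls and *Lhx6* mutant 6 had library names without a date, and the other 4 *Lhx6* mutants had dated names. *Mtg8* controls 1 and 2 and mutant 2 had dated names, and *Mtg8* control 4 and mutants 3 and 4 did not. Names also shared a number between *Lhx6* controls 1 and 2 and mutant 6, between controls 3 and 4, between *Lhx6* mutants 2 and 5, and between *Mtg8* controls 1 and 2 and mutant 2, and the fits treated these libraries as independent. What this naming stands for was not given, and in the *Lhx6* table it could hardly be told apart from genotype.

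*Grin2b* supplied most of the signal. Of 17691 reads on the 8 genes over the 15 libraries, 76.3% were *Grin2b* reads. *Grin2b*, *Grin1* and *Grid1* exceeded 3 reads in all 15 libraries, *Grin2d* and *Grin3a* in 14, *Grin2a* and *Grin3b* in 8 and *Grin2c* in 4. Read numbers depend on gene length, so levels of different genes were compared per kb of exon. In *Lhx6* controls the level per kb was 29.1 ± 11.2 normalized counts for *Grin2b*, 17.7 ± 3.36 for *Grid1* and 9.83 ± 1.16 for *Grin1* (mean ± SD, n = 4). *Grin3a* followed at 2.97 ± 1.57 and *Grin3b* at 2.95 ± 2.19, then *Grin2d* at 1.42 ± 1.03, *Grin2c* at 0.258 ± 0.403 and *Grin2a* at 0.0916 ± 0.0920. The range of *Grin2b* overlapped that of *Grid1*, *Grid1* lay above *Grin1* and *Grin1* above *Grin3a* in every control, and neighbours below *Grin1* overlapped. *Mtg8* controls gave 44.3 ± 11.5 normalized counts per kb for *Grin2b*, 27.5 ± 13.3 for *Grid1*, 5.44 ± 1.90 for *Grin1* and 5.40 ± 1.34 for *Grin3a* (n = 3). In these embryos *Grin1* and *Grin3a* did not differ beyond their spread. The other members of *Mtg8* controls were *Grin3b* at 2.20 ± 0.995, *Grin2d* at 1.41 ± 0.955, *Grin2a* at 0.600 ± 0.144 and *Grin2c* at 0.148 ± 0.256 per kb. The tables were normalized separately, so only the order, not the size of these levels, was set side by side.

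The top of the order rested in part on the length used. By exon length *Grin2b* exceeded *Grid1* in 13 of 15 libraries, *Grid1* exceeded *Grin1* in 13 and *Grin2b* exceeded *Grin1* in 14. By coding length *Grin2b* exceeded both in all 15 libraries, whereas *Grid1* exceeded *Grin1* in 8. By the length of the longest coding transcript *Grid1* exceeded *Grin1* in 7 and *Grin2b* exceeded *Grin1* in 11. In the *Lhx6* table that last count was 5 of 9, and *Lhx6* mutants averaged 34.4 per kb of transcript for *Grin1* and 29.8 for *Grin2b*. The order of these 3 genes thus depended on the length.

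**Figure D1:**
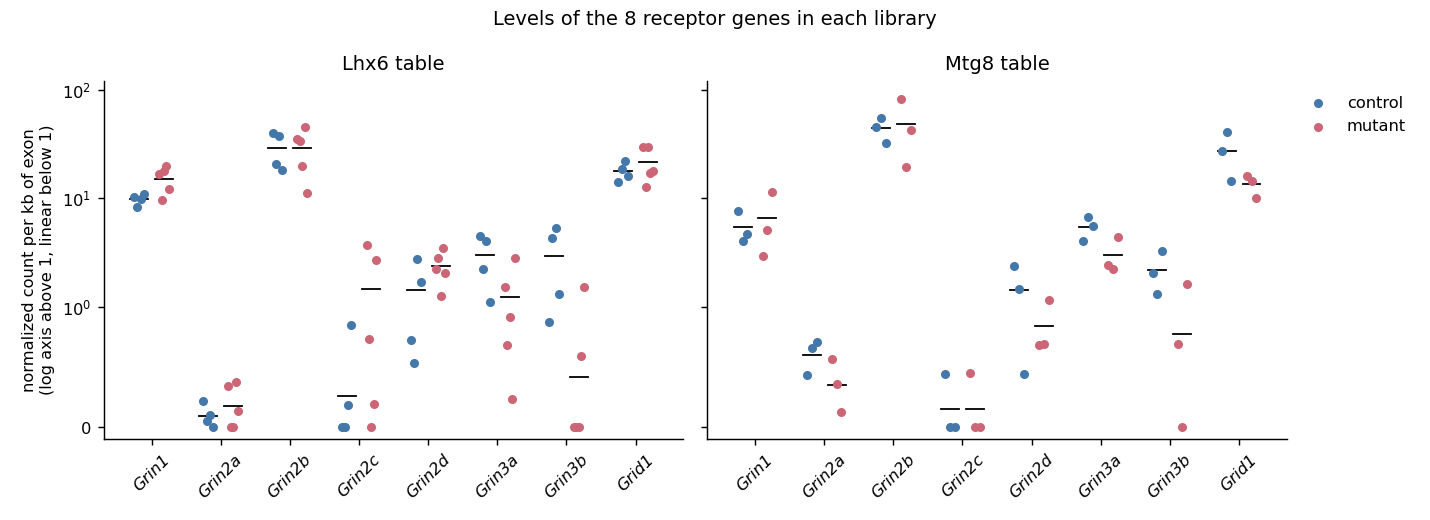
Normalized count per kb of exon (log axis above 1, linear below 1) of the 8 genes, with 1 point for each library, blue for controls and red for mutants, and a black line at each group mean. By group mean *Grin2b* and *Grid1* sit highest in both tables, *Grin2a* and *Grin2c* lie lowest in the controls, and control and mutant points overlap for every gene.

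No member changed past the threshold in either comparison. For *Lhx6*, 5 of the 8 genes had the mean normalized count of at least 10 that testing required, and 0 of 5 were called (limma on log2(normalized count + 1), Benjamini-Hochberg adjusted p under 0.05), where 1.71% of all 16727 genes tested were called. For *Mtg8*, 4 of 8 were tested and 0 were called, as was 0% of all 16132 genes tested. At an unadjusted p under 0.05 the counts were 1 of 5 members against 12.7% of all genes in the *Lhx6* table and 2 of 4 against 5.49% in the *Mtg8* table. No member had groups without overlap, against 6.22% and 10.2% of all genes. DESeq2 and edgeR on the recovered reads likewise called 0 members in each table. With these few embryos the intervals were wide, and the values below give what they allow.

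*Grin1* (ENSMUSG00000026959.13, chr2:25291181-25319187, minus strand) encodes the subunit that every NMDA receptor contains. It had 99.98, 79.8, 95.8 and 106 normalized counts in *Lhx6* controls 1 to 4, and 162, 92.6, 171, 192 and 118 in mutants 1, 2, 3, 5 and 6. Mutant 2 lay inside the control range and the other 4 mutants lay above every control. The mean was 95.4 ± 11.2 in controls and 147 ± 40.8 in mutants. The log2 fold change was 0.58 (SE 0.258, 95% interval 0.019 to 1.14), with an unadjusted p of 0.0436 and an adjusted p of 0.377 in limma. The exact permutation test of this gene alone gave p = 0.0714 (two-sided), where 0.00794 is the smallest that 4 against 5 libraries allow. Against the 4 controls, mutant 6, the only mutant with the same naming style, was higher by 0.31 on the log2 scale. In sorted bulk samples, a change in the number of cells that express a gene and a change in RNA per cell cannot be told apart.

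*Grin1* was spread more widely among the *Mtg8* embryos. Controls 1, 2 and 4 had 73.8, 39.5 and 44.997 normalized counts, and the libraries labelled mutant 2, 3 and 4 had 28.3, 49.6 and 112. The lowest and the highest library were both labelled mutant. The log2 fold change was 0.09 (SE 0.476, 95% interval -0.95 to 1.12, limma adjusted p = 0.983), and without mutant 4 it was -0.43. The interval thus covers a change of nearly 1 on the log2 scale in either direction.

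*Grin2b* (ENSMUSG00000030209.14, chr6:135713233-136173511, minus strand) encodes the GluN2 subunit that prevails before birth. It had 991, 515, 932 and 454 normalized counts in *Lhx6* controls 1 to 4, and 867, 834, 495, 1116 and 279 in mutants 1, 2, 3, 5 and 6. The mutants held both the highest and the lowest library of the table. The means were 723 ± 278 and 718 ± 331, the log2 fold change was -0.08 (SE 0.376, 95% interval -0.90 to 0.73) and the adjusted p was 0.936 in limma. Without mutant 6 the fold change was 0.22, and mutant 6 alone against the 4 controls gave -1.29.

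For *Mtg8*, *Grin2b* had 1131, 1371 and 801 normalized counts in controls 1, 2 and 4 and 2042, 482 and 1063 in mutants 2, 3 and 4. Here too the extremes were both among the libraries labelled mutant. The mean was 1101 ± 286 in controls and 1196 ± 789 in mutants, while the log2 fold change was -0.08 (SE 0.409, 95% interval -0.97 to 0.81, limma adjusted p = 0.982). The arithmetic means and the log2 means differed in sign, and without mutant 3 the fold change was 0.45. Dated libraries gave 0.71 and undated libraries gave -0.16.

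The other GluN2 genes were scarce. *Grin2d* (ENSMUSG00000002771.12, chr7:45831883-45878378, minus strand), the second GluN2 gene of the embryonic brain, had 4.81, 3.55, 18.4 and 11.1 normalized counts in *Lhx6* controls 1 to 4. The mutants 1, 2, 3, 5 and 6 had 14.8, 18.5, 8.38, 23.2 and 13.6. All 5 mutants lay above controls 1 and 2, and the ranges overlapped through controls 3 and 4. The log2 fold change was 0.84 (SE 0.61, 95% interval -0.48 to 2.17, limma adjusted p = 0.582). It was 0.52 without control 2, 1.22 without control 3 and 0.44 with a pseudocount of 10. In the other table, of *Mtg8* embryos, *Grin2d* was under the minimum mean and had 3 to 14 reads a library, with 26 reads in the 3 controls and 19 in the 3 libraries labelled mutant.

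*Grin2a* (ENSMUSG00000059003.12, chr16:9567898-9995560, minus strand), the GluN2 gene of the mature brain, had 7 reads in the 4 *Lhx6* controls together and 14 in the 5 mutants. It reached 31 reads in the 3 *Mtg8* controls and 19 in the 3 libraries labelled mutant. *Grin2c* (ENSMUSG00000020734.13, chr11:115249169-115267243, minus strand) had 6 reads in the 4 *Lhx6* controls and 31 in the 5 mutants, of which 15 came from mutant 1 and 11 from mutant 6. *Lhx6* controls 1 and 2 and mutant 3 had 0 *Grin2c* reads, which allows up to 2.88, 2.66 and 2.79 normalized counts by the 3-read limit for a count of 0. *Mtg8* embryos gave *Grin2c* 2 reads in each group, with 0 in 4 of 6 libraries. Both lay under the minimum mean. With no filter limma gave *Grin2a* a log2 fold change of 0.35 and *Grin2c* one of 1.44 in the *Lhx6* table (adjusted p = 0.941 and 0.671). These limits cover counting error only.

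*Grin2b* made up nearly all of the summed GluN2 level per kb. Its share was 93.8 ± 4.62% in *Lhx6* controls (range 87.9 to 97.7%) and 86.1 ± 9.83% in *Lhx6* mutants (range 69.6 to 94.1%). The lowest share, 69.6%, was that of *Lhx6* mutant 6, where *Grin2c* took 16.8% and *Grin2d* 12.7%. These values rested on the length, and by coding length the same library gave 89.1%, 5.21% and 4.88%. Its share was 95.4 ± 1.78% in *Mtg8* controls and 96.6 ± 1.603% in libraries labelled *Mtg8* mutant. The share stayed above 69% in every library under exon length. The ratio of the *Grin1* level to the summed GluN2 level per kb was 0.352 ± 0.133 in *Lhx6* controls, 0.531 ± 0.249 in *Lhx6* mutants, 0.122 ± 0.0449 in *Mtg8* controls and 0.182 ± 0.128 in libraries labelled *Mtg8* mutant. This ratio depended on the length, since the transcript length gave 0.765 and the coding length 0.223 in *Lhx6* controls.

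**Figure D2:**
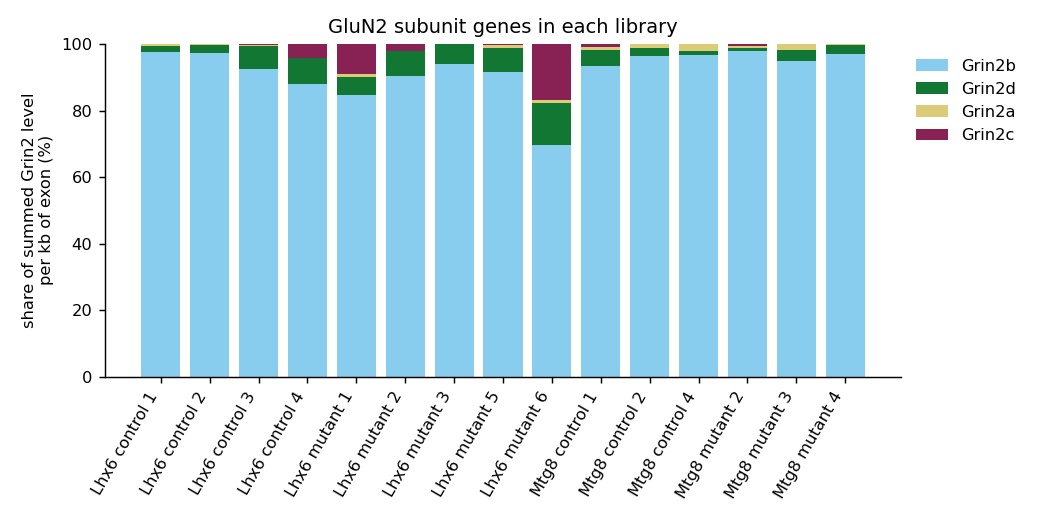
Share of the summed level per kb of exon (percent, from 0 to 100) that each GluN2 gene took in each of the 15 libraries, with 1 bar for each library. *Grin2b* fills most of every bar, and the bar of *Lhx6* mutant 6 shows the lowest *Grin2b* share at 69.6%.

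The GluN3 genes, whose subunits lower calcium permeability, had lower means in the mutants of both tables. *Grin3a* (ENSMUSG00000039579.15, chr4:49661611-49845744, minus strand) had 54.8, 27.5, 49.7 and 13.7 normalized counts in *Lhx6* controls 1 to 4. The mutants 1, 2, 3, 5 and 6 had 18.56, 8.33, 11.2, 2.91 and 34.7. Mutants 2, 3 and 5 lay below every control, while mutants 1 and 6 lay inside the control range. The means were 36.4 ± 19.3 and 15.1 ± 12.3, the log2 fold change was -1.40 (SE 0.665, 95% interval -2.84 to 0.044) and the adjusted p was 0.409 in limma. The exact permutation p was 0.103. The value rested on the dated mutants, since mutant 6 against the 4 controls gave 0.11, and the part of the naming style in it was not tested apart from genotype.

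Among *Mtg8* embryos *Grin3a* had 49.2, 82.1 and 67.5 normalized counts in controls 1, 2 and 4 and 29.5, 27.6 and 54.3 in mutants 2, 3 and 4. Mutants 2 and 3 lay below every control and mutant 4 lay between controls 1 and 4. The means were 66.3 ± 16.5 and 37.1 ± 14.9, and the log2 fold change was -0.86 (SE 0.386, 95% interval -1.70 to -0.017). The unadjusted p was 0.0462 and the adjusted p 0.859 in limma, and the exact permutation p was 0.2, where 3 against 3 libraries cannot give less than 0.1. The dated libraries gave -1.08 and the undated libraries -0.79.

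*Grin3b* (ENSMUSG00000035745.9, chr10:79970715-79977190, plus strand) had a mean under 10 in both tables and was not tested in the fit. *Lhx6* controls 1 to 4 had 2.88, 14.2, 17.5 and 4.28 normalized counts, and mutants 1, 2, 3, 5 and 6 had 0, 0, 0, 1.94 and 4.95. This amounts to 43 reads in 4 controls and 6 in 5 mutants, and the groups overlapped through mutant 6 and controls 1 and 4. The exact permutation p was 0.0397, while limma without the filter on low values gave a log2 fold change of -2.30 (SE 0.748, adjusted p = 0.259). Within the same naming style the difference was smaller in the *Lhx6* table, at -0.55 for mutant 6 against the 4 controls. The *Mtg8* controls 1, 2 and 4 had 6.71, 4.27 and 10.76 normalized counts and mutants 2, 3 and 4 had 2.27, 0 and 5.35, or 21 reads against 9. In the *Mtg8* table the exact permutation p was 0.2. Limma without the filter gave a log2 fold change of -1.51 there (SE 0.752, adjusted p = 0.984). By naming style the *Mtg8* differences were -0.96 among libraries with dated names and -2.22 among the others. Of its 3296 exon bases 2016 overlap *Tmem259* on the opposite strand, and whether counting used the strand was not given. *Tmem259* had 162 ± 33.2 normalized counts in *Lhx6* controls and 142 ± 50.9 in mutants, and 20.1 ± 3.42 and 43.9 ± 27.3 in the *Mtg8* groups, and its part in the *Grin3b* values was not tested.

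*Grid1* (ENSMUSG00000041078.7, chr14:34820108-35583379, plus strand), the gene of the synaptic organizer GluD1, had 83.6, 112, 130 and 95.8 normalized counts in *Lhx6* controls 1 to 4. The mutants 1, 2, 3, 5 and 6 had 178, 75.9, 177, 103 and 106. Mutants 1 and 3 lay above every control and mutant 2 below every control. The means were 105 ± 20.04 and 128 ± 46.7, and the log2 fold change was 0.22 (SE 0.294, 95% interval -0.41 to 0.86, limma adjusted p = 0.761). It was 0.12 without control 1, 0.084 without mutant 1, 0.087 without mutant 3 and 0.39 without mutant 2. Mutant 6 alone against the 4 controls gave 0.036.

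Among *Mtg8* embryos *Grid1* had 162, 244 and 85.1 normalized counts in controls 1, 2 and 4 and 96.3, 86.4 and 59.6 in mutants 2, 3 and 4. Controls 1 and 2 lay above every library labelled mutant and control 4 lay among them. The means were 164 ± 79.6 and 80.8 ± 19.0, and the log2 fold change was -0.91 (SE 0.381, 95% interval -1.74 to -0.085). The unadjusted p was 0.0333 and the adjusted p 0.859 in limma, and the exact permutation p was 0.3. Without control 2 the fold change was -0.56. The dated libraries gave -1.04 and the undated libraries -0.24. Adjusted p ranged from 0.310 to 0.9998 over the alternatives, with 0.42 in DESeq2 and 0.69 in edgeR.

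**Figure D3:**
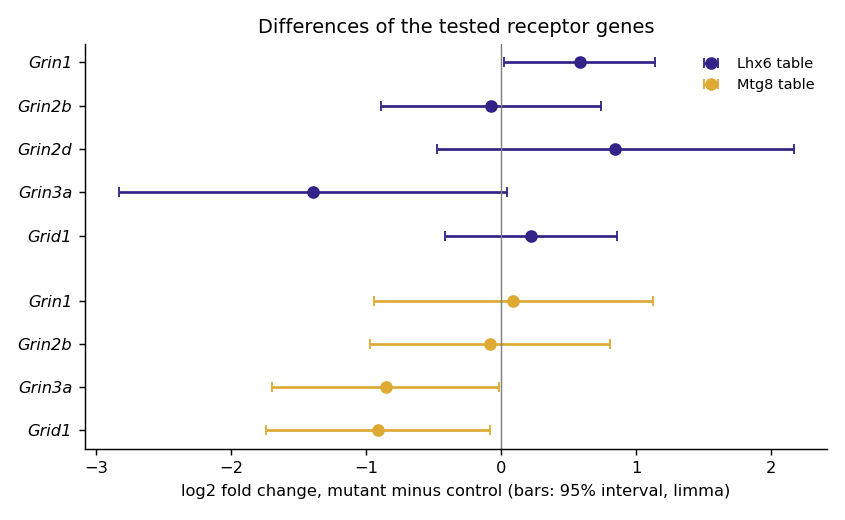
Log2 fold change (mutant minus control) of each member that was tested, with bars for the 95% interval of limma, for the *Lhx6* table in blue and the *Mtg8* table in yellow. The interval excludes 0 for *Grin1* in the *Lhx6* table and for *Grin3a* and *Grid1* in the *Mtg8* table, before any adjustment for the number of genes tested.

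*Grin2b* varied between embryos of the same group more than nearly all genes of like level. Its highest library exceeded the lowest by 2.18-fold in *Lhx6* controls, 4.01-fold in *Lhx6* mutants, 1.71-fold in *Mtg8* controls and 4.24-fold in libraries labelled *Mtg8* mutant. The within-group SD of its log2 value was 0.712 in the *Lhx6* table, where the median of the 4591 genes with means within 2-fold of its own was 0.286 and 98.7% of them had a lower SD. In the *Mtg8* table the SD was 0.788 against a median of 0.252, and 99.1% of 3961 such genes had a lower SD. The other members were not at this extreme in both tables. The SD of *Grin1* was 0.345 in the *Lhx6* table (26.08% of genes of like level lower) and 0.765 in the *Mtg8* table (87.4% lower). *Grid1* stood at 0.440 (46.1% lower) and 0.595 (83.7% lower), and *Grin3a* at 1.07 (64.4% lower) and 0.453 (47.8% lower).

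**Figure D4:**
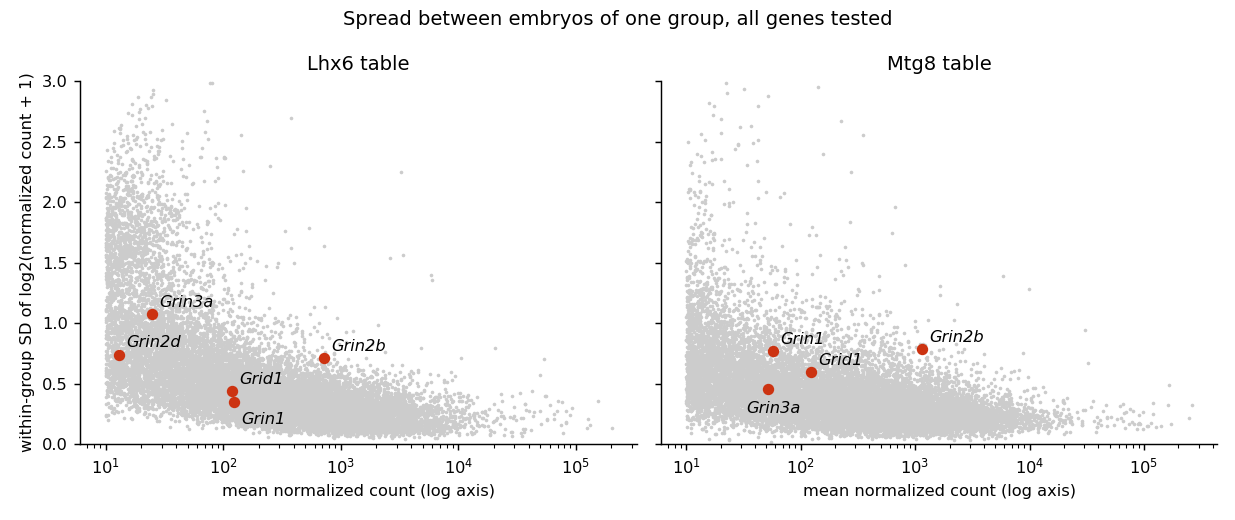
Within-group SD of log2(normalized count + 1) against the mean normalized count (log axis) of every gene tested, in grey, with the members in red. *Grin2b* lies near the upper edge of the cloud at its level in both tables, with an SD of 0.712 and 0.788.

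The genes whose values moved most like *Grin2b* from embryo to embryo were *Kcnq1ot1*, *Nipa1* and *Myt1l*. Deviations from the group mean were compared over the 15 libraries among 10224 genes with a mean of at least 100 in both tables, and the 3 genes were chosen as those with the largest Pearson r, so no p is given. *Kcnq1ot1*, a long noncoding RNA of an imprinted domain, had r = 0.950 (Spearman rho 0.875), and r was 0.902 without *Lhx6* mutant 6 and *Mtg8* mutant 3, the libraries farthest from the median of *Grin2b*. *Nipa1*, a magnesium transporter, had r = 0.918 (rho 0.889, and 0.878 without those libraries). *Myt1l*, a neuronal zinc finger factor, had r = 0.913 (rho 0.864, and 0.828 without them). Exons of *Nipa1* and *Myt1l* overlap genes on the opposite strand by at most 473 and 633 bases, and those of *Kcnq1ot1* overlap *Kcnq1* by at most 121. Over the 10224 genes 94 had r above 0.8 and 12 had r below -0.8. The points share libraries, depth and size factors, and the correlations describe these 15 libraries only. Exon length was 93092 bases for *Kcnq1ot1*, 14018 for *Myt1l* and 3183 for *Nipa1*, beside 24842 for *Grin2b*. The part of length in the correlations was not tested. *Grid1*, the other abundant member with a mean over 100 in both tables, had r = 0.132 with *Grin2b*.

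*Kcnq1ot1* shows the pattern by library. It had 884, 518, 951 and 563 normalized counts in *Lhx6* controls 1 to 4 and 2276, 2101, 985, 1977 and 706 in mutants 1, 2, 3, 5 and 6. In the *Mtg8* table it had 929, 713 and 545 in controls 1, 2 and 4 and 896, 227 and 511 in mutants 2, 3 and 4. Controls 1 and 3 were the high pair and controls 2 and 4 the low pair for both genes in the *Lhx6* table. *Lhx6* mutant 6 and *Mtg8* mutant 3 were the lowest library of their group for both.

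**Figure D5:**
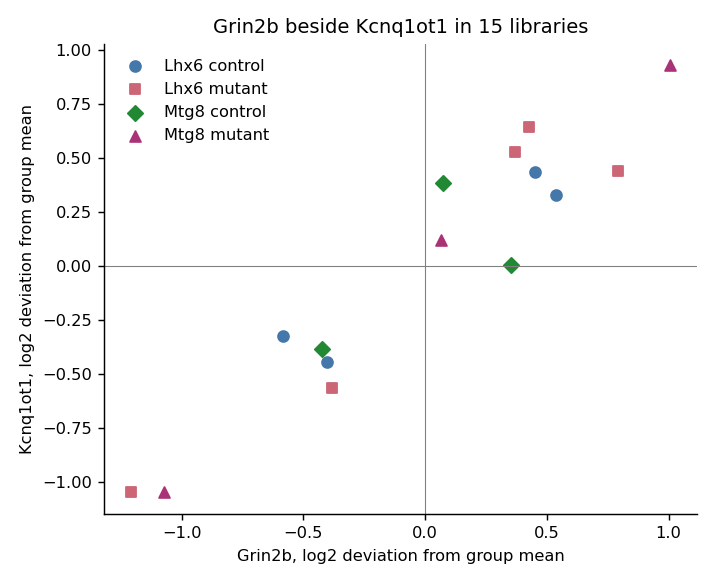
Deviation from the group mean on the log2 scale of *Grin2b* (horizontal) and *Kcnq1ot1* (vertical), with 1 point for each of 15 libraries and a colour and shape for each group. The points follow a rising line (r = 0.950), with *Lhx6* mutant 6 and *Mtg8* mutant 3 at the lower left and *Mtg8* mutant 2 at the upper right.

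Genes that work with these receptors were taken from 6 lists, whose counts in the *Lhx6* table stand beside 1.71% of all genes called. Among genes for the supply and clearance of the co-agonists glycine and D-serine, 0 of 11 tested rose or fell in the *Lhx6* table, with a median log2 fold change of -0.24 against -0.037 over all genes tested. The highest of them per kb, *Phgdh*, which starts serine synthesis, had a log2 fold change of -0.08 (limma adjusted p = 0.914). Of 19 genes of receptor signalling 0 were called (median 0.052), and *Calm2*, a calmodulin gene and the highest per kb, had 0.05 (limma adjusted p = 0.854). Of 16 genes of the postsynaptic scaffold 1 fell and 0 rose (median 0.16). It was *Dlgap1*, which links PSD-95 to Shank proteins, at 2004 ± 285 normalized counts in controls and 1031 ± 353 in mutants (log2 fold change -1.02, limma adjusted p = 0.0468), a call that was lost in 11 of 20 alternatives, over which the fold change ran from -1.71 to -0.84.

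Genes of trafficking and auxiliary partners gave 1 call among 8 tested (median -0.092). *Neto1*, an auxiliary subunit of kainate receptors that also binds NMDA receptors, fell from 1460 ± 339 to 44.5 ± 24.2 normalized counts (log2 fold change -5.16, limma adjusted p = 6.9e-06). Among 5 tested partners of delta receptors 1 rose and 0 fell (median 0.71). *Cbln2*, a secreted cerebellin that bridges neurexins and GluD receptors, rose from 89.0 ± 10.02 to 763 ± 228 normalized counts (log2 fold change 3.04, limma adjusted p = 8.2e-06), beside the *Grid1* difference of 0.22. Both calls held in all 20 alternatives.

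The AMPA and kainate receptor subunits, the other ionotropic glutamate receptors, gave 3 lower and 0 higher among 8 tested (median 0.069). *Gria1* fell from 8250 ± 1707 to 3049 ± 663 normalized counts (log2 fold change -1.44, limma adjusted p = 0.000959). *Gria4* fell from 1764 ± 232 to 923 ± 259 (log2 fold change -0.98, limma adjusted p = 0.039) and lost the call in 8 of 20 alternatives, over which the fold change ran from -1.73 to -0.75. *Grik2* fell from 557 ± 86.8 to 259 ± 49.6 (log2 fold change -1.11, limma adjusted p = 0.00753). *Gria1* lost its call in 1 and *Grik2* in 2 of 20 alternatives, and both lost it with the naming style as a covariate, where the limma adjusted p was highest over the alternatives (0.105 and 0.368). Their log2 fold changes in that fit, which sets mutant 6 against the 4 controls, were -1.48 and -1.11. By limma 0 genes of the 6 lists were called for *Mtg8*, with medians of 0.38 for co-agonist genes, -0.10 for the scaffold, -0.15 for trafficking, -0.012 for signalling, -0.31 for delta partners and -0.42 for AMPA and kainate subunits, against -0.013 over all genes. *Cbln2* had 41.3 ± 11.2 and 134 ± 49.8 normalized counts there (log2 fold change 1.65, limma adjusted p = 0.636), and it was called by DESeq2 (adjusted p = 0.0206) and with the replicate block (0.0402) among 17 alternatives, over which the adjusted p ran from 0.0206 to 0.999. The *Mtg8* groups did not overlap for *Cbln2*, *Neto1*, *Gria1* and *Grik2*, as for 10.2% of all genes, and the log2 fold changes of the last 3 were -0.82, -0.77 and -0.55 (limma adjusted p = 0.813, 0.769 and 0.859).

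Promoter windows of 250 bases before to 50 after the start, from RefSeq on GRCm38.p6, were matched for 4 of the 8 genes, *Grin1*, *Grin2c*, *Grin2d* and *Grin3b*. The letters TAATTA, a core that homeodomain factors can bind and that reads the same on both strands, occurred in 0 of these 4 windows and in 5.29% of all 32851 windows. These letters were searched with no mismatch, and their absence from a window says nothing about binding elsewhere.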

How the data were processed

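Each library holds the sorted YFP-positive cortical cells of 1 embryo. The authors made cDNA with the NEBNext Single Cell/Low Input kit and sequenced single 75-base reads. They used fastp 0.20.1 for trimming, STAR 2.7b for alignment and featureCounts 1.6.4 for counting per gene, and removed sex-linked genes (GRCm38.p6). The paper gives as the reason that the sexes were unevenly spread over control and mutant samples. The fits here held no term for sex. The signal the authors deposited is the count of each gene divided by the DESeq2 size factor of the library, computed in each table alone. Values were whole multiples of 1 read for 100% of genes (tolerance 0.01), so reads were recovered. The tables also hold the authors' fold changes and p-values, which were not used.

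Each table was fitted alone with limma 3.58.1 (R 4.3.3; mean-variance trend, two-sided, Benjamini-Hochberg, threshold 0.05) on log2(normalized count + 1), and genes under a mean of 10 were left out. A fold change on this scale understates the change of low genes. Exact permutation tests were used for single genes. Alternatives were edgeR 4.0.16 or DESeq2 1.42.0 run on reads, TMM factors, equal totals, pseudocounts of 0.5 and 10, minimum means of 0 and 50, limma with no trend, a block for replicate number, a term for naming style, and leaving out each library. The scripts were tested on simulated data. Depth was 12218422 to 22053032 reads a library. The number of embryos limits precision, and reads without molecular identifiers make the 3-read limit one of counting error only. Levels per kb used the exon length in the tables. Shared runs were found in GENCODE M21 transcripts, whose gene spans equal those of the tables, and the receptor sequences themselves are not reported here. The members, lists and rules were chosen with earlier results of these data known. Named genes were all members, the genes of the lists that were called, the gene with the highest level per kb of a list with no call, and the 3 genes most like *Grin2b*, the member with the highest level per kb in *Lhx6* controls.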

Additional observations from a re-analysis of the deposited data

How the results depend on the processing

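No member was called under any of the 20 alternatives run in the *Lhx6* table or the 17 run in the *Mtg8* table. Of all genes, 114 were lower and 172 higher in the *Lhx6* table. DESeq2 gave 257 and 499, the replicate block 37 and 49, and the naming style as a covariate 42 and 15. Leaving out 1 library gave 55 to 148 lower and 104 to 344 higher. For *Mtg8*, limma called 0 lower and 0 higher, with 886 genes at an unadjusted p under 0.05. No filter gave 1 higher, a minimum mean of 50 gave 1 and 1, edgeR 1 higher, DESeq2 10 lower and 21 higher, the replicate block 12 and 88, and leaving out 1 library 0 to 4 and 0 to 83, the highest of both without mutant 2. edgeR called 280 and DESeq2 756 genes in the *Lhx6* table. The causes were not tested.

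The log2 fold change of *Grin2b* changed sign in the *Lhx6* table without control 1 (0.10), control 3 (0.07), mutant 3 (0.015) or mutant 6 (0.22), within a range of -0.28 to 0.22 over libraries left out. In the *Mtg8* table it was 0.13 in edgeR, 0.12 in DESeq2, 0.49 with the replicate block, 0.28 with the naming style, 0.09 without control 2 and 0.45 without mutant 3, within -0.59 to 0.45 over libraries left out. *Grin1* in the *Mtg8* table was -0.10 with the naming style, -0.09 without control 2 and -0.43 without mutant 4 (range -0.43 to 0.54 over libraries left out), *Grin3a* in the *Lhx6* table was 0.11 with the naming style, and *Gria4* in the *Mtg8* table was 0.0051 without mutant 3 (range -0.38 to 0.0051). *Cbln2* was called in the *Mtg8* table by DESeq2 (1.71) and with the replicate block (1.55).

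The *Grin2b* share in the *Mtg8* table was 98.1% in controls and 98.7% in mutants with no length, and 98.0% and 98.6% by coding length, which was added after seeing the data. In the *Lhx6* table these were 98.2% and 95.8% with no length, and 98.0% and 95.3% by coding length, against 93.8% and 86.1% by exon length. Same-numbered embryos are different animals. Their deviations correlated at 0.149 on average in the *Mtg8* table (2 pairs), against -0.043 for libraries of different number. In the *Lhx6* table the averages were -0.027 and 0.0044. The main fits did not take the numbers as pairs because they name different animals, and the replicate block was run as an alternative. *Grin2a*, *Grin2c* and *Grin3b* were under the minimum mean in both tables and were fitted only with no filter.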
